A study of Homo sapiens with 3 samples.

Results

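The mitochondrial messenger RNAs encoded by the heavy-strand transcript were examined through their polyadenylated 3′ ends. The members were all positions of the mitochondrial genome (chrM) on the plus strand from 3301 to 16000 that held counts. There were 7835 such positions among the 1730926 positions with counts in the whole series, and they are called the set below. They were read at the 3′ ends of ND1, ND2, CO1, CO2, ATP8/6, CO3, ND3, ND4L/4, ND5 and CYB.

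Human mitochondrial DNA is transcribed into long precursors that hold rRNAs, tRNAs and mRNAs end to end. Most mRNAs of the heavy-strand transcript are flanked by tRNAs, and cutting the tRNAs out frees the mRNA ends, which then receive a short poly(A) tail from the mitochondrial poly(A) polymerase. For ND1, ND2, ATP6, CO3, ND3, ND4 and CYB the tail also completes the stop codon, of which the genome encodes only the first base or bases. The mRNAs encode core subunits of the respiratory chain: ND subunits of complex I, CYB of complex III, CO subunits of complex IV, and ATP8 and ATP6 of complex V, the ATP synthase.

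The cells were HEK293T, an established human embryonic kidney cell line that carries the SV40 large T antigen. RNA ends were counted in 3 libraries, 1 per group, by 2P-seq, in which sequencing starts at the junction between an RNA and its poly(A) tail. The groups were RNA captured through 4-thiouridine (4sU) after 30 min of labelling, the same after 60 min, and an uncaptured input that the labels tie to 30 min of labelling. 4sU is a uridine analogue that cells build into new RNA, so captured RNA is enriched for recently made molecules. No genotype or drug treatment beside 4sU is named for any group. The treatment field of the input reads none although its title names 30 min, and the labels give the 4sU dose as 1000 mM. The captured libraries were made without the first of the protocol's poly(A) selections. For the input no source used here states this step, so capture and selection cannot be told apart. Positions were not assigned to nuclear genes, so the cell line was not checked against marker genes.

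With 1 library per group no difference has a replicate check, and all 95% intervals cover counting error only. The tables held 14159691 counts at 30 min, 8926568 at 60 min and 35410931 in the input. The set took 2664624, 1598592 and 1077578 of these. As a share of each library this was 18.8% at 30 min (Wilson interval 18.8 to 18.8), 17.9% at 60 min (17.9 to 17.9) and 3.04% in the input (3.04 to 3.05). As a share of chrM counts it was 59.1%, 57.6% and 40.8%.

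The data could be read at 7 of the 10 gene ends. The ends of ND1, CO1 and CO2 lay inside stretches where no plus-strand position held a count in any library, from 4144 to 4312, 7357 to 7521 and 8243 to 8406. The nearest counted position was 50 nt downstream of the ND1 end, 4 nt downstream of the CO1 end and 53 nt upstream of the CO2 end. Within the range there were 55 such stretches of at least 20 nt, covering 30.5% of it. All 21 of at least 60 nt lay before the CO3 end and 0 after it. For 19 of these 21, the minus strand had a stretch of similar length that started 38 to 42 nt lower (median 39 nt). The cause of these stretches was not tested, and no level is given for the ND1, CO1 and CO2 ends. At 2 of the measured ends a stretch without counts adjoined the highest position, 2 nt downstream for ATP8/6 (9208 to 9255) and 1 nt upstream for ND5 (14709 to 14745). Counts of these ends may therefore be incomplete in all 3 libraries.

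The measured ends were sharp except ND3 and ND2, which were split among nearby positions. Each site was a peak in the counts summed over the libraries, with all positions up to 24 nt from it. The highest positions were 5512 for ND2, 9206 for ATP8/6, 9991 for CO3, 10402 for ND3, 12138 for ND4L/4, 14746 for ND5 and 15888 for CYB. For 4 of them (ND2, CO3, ND4L/4 and CYB) the position was exactly 1 nt above the last base before the next plus-strand RNA in RefSeq's mitochondrial annotation of GRCh38.p14. That table is of another numbering. Its coordinates, moved by this 1 nt, placed the gene ends, the gene segments and the tRNA boundaries used here. Together these ends held 87.0% of the set at 30 min, 84.5% at 60 min and 83.4% in the input. The highest of the other 285 sites held 0.504% of the set in any library.

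In the input, the measured ends were led by CO3, a subunit of cytochrome c oxidase, with 24.9% of the counts of the set (24.9 to 25.0). ATP8/6, a shared mRNA for 2 ATP synthase subunits, followed with 13.9%, then CYB, the cytochrome b of complex III, with 12.4%. ND4L/4, also a shared mRNA of 2 subunits, had 9.89%, ND5 8.07% (8.02 to 8.12), ND3 7.11% (7.06 to 7.16) and ND2 7.07% (7.03 to 7.12). All neighbours in this order had intervals that lay apart except ND3 and ND2, whose intervals overlapped. The intervals treat reads as independent, which they are not known to be.

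In the captured RNA the order was different. At 30 min ND2 came first with 19.1% of the set, ahead of CO3 with 17.5% and CYB with 15.2%. ND4L/4 with 11.9% and ATP8/6 with 11.7% were close, ND3 held 8.01%, and ND5 was last with 3.51%. At 60 min ND2 led further with 22.0%, ND4L/4 was second with 17.3% and CYB followed with 15.2%. ATP8/6 held 11.7%, CO3 8.18%, ND3 5.83% and ND5 4.38%. Among the measured ends, ND2 thus went from the last place in the input to the first in both captured libraries. CO3 went from the first place to the second at 30 min and behind ATP8/6 at 60 min.

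Summed by complex, the measured complex I ends (ND2, ND3, ND4L/4 and ND5) held 32.1% of the set in the input, 42.6% at 30 min and 49.5% at 60 min. Complex III, which CYB alone stands for, held 12.4%, 15.2% and 15.2%, and complex V, through ATP8/6, held 13.9%, 11.7% and 11.7%. Complex IV was read only through CO3, since CO1 and CO2 had no level, so its 24.9%, 17.5% and 8.18% leave out most of its mRNAs. ND2 and ND4L/4 had larger shares at 60 min than in the input, and ND3 and ND5 smaller ones, so the complex I sum hides members that differ in direction.

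**Figure D1:**
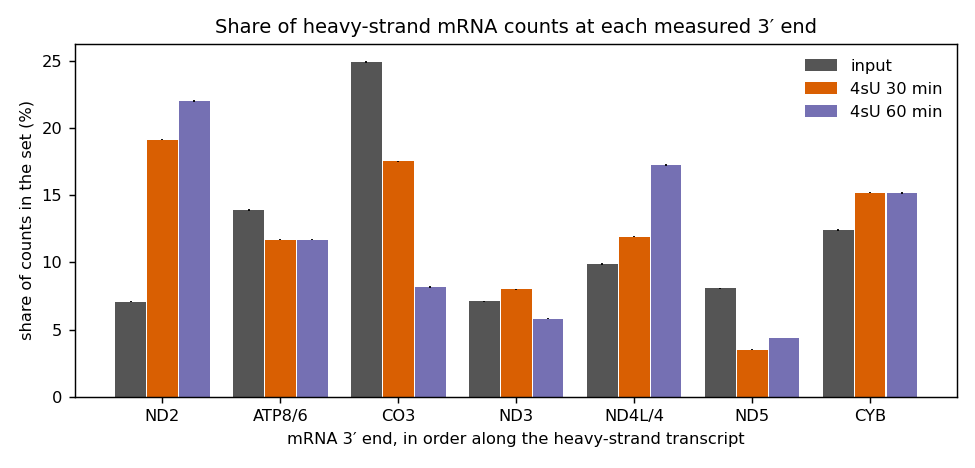
Share of the counts in the set (%) at each measured mRNA 3′ end, in genome order, for the input and the captured libraries, 1 library each, with Wilson 95% intervals too narrow to see. ND2 stands at 7.07% in the input and 22.0% at 60 min, and CO3 at 24.9% in the input and 8.18% at 60 min.

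The set as a whole was 8.40 times the input per nuclear count at 30 min, 7.90 times at 60 min, and 0.941 times from 30 to 60 min. The direction of the last ratio depends on the scaling, since the median nuclear site stood lower, at 0.831, between the labelling times. The first comparison asked which ends were over-represented in RNA captured after 30 min. Levels were set per 1000000 nuclear counts (nuclear CPM), and an end was called when its ratio reached 2-fold and its exact interval excluded 1. All 7 measured ends were called higher than in the input and 0 lower, with ratios from 3.65 to 22.7 and a median of 9.45. The background was 35.3% of 10843 nuclear sites called higher and 17.1% called lower, with a median ratio of 1.29. Among the 85 nuclear sites with a mean of at least 1000 CPM, which are nearer in abundance, 17.6% were called higher and 57.6% lower. These ratios set captured against uncaptured RNA and do not measure the amount of an RNA per cell. In bulk RNA, more of an RNA per cell and more cells that hold it cannot be told apart.

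Among the complex I subunits, ND2, a membrane-arm subunit, had 510055 counts at 30 min and 76235 in the input, or 52844 against 2326 nuclear CPM. Its ratio of 22.7 (22.5 to 22.9) was the highest of the ends and lay above 97.1% of nuclear sites. ND3, a small subunit at the hinge of the arms, had 22101 against 2338 nuclear CPM, a ratio of 9.45 (9.38 to 9.53). ND4L/4, which encodes membrane-arm subunits, had 32934 against 3253 nuclear CPM, a ratio of 10.1 (10.1 to 10.2). ND5, the distal proton-pumping subunit, had 9687 against 2654 nuclear CPM, and its ratio of 3.65 (3.62 to 3.68) was the lowest of the ends. The complex I ends therefore spanned the whole range of the measured ends.

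Outside complex I the ratios were closer together. CYB had 41974 nuclear CPM at 30 min and 4086 in the input, a ratio of 10.3 (10.2 to 10.3). ATP8/6 had 32306 against 4578 nuclear CPM, 7.06-fold higher (7.01 to 7.10). CO3 had 48425 against 8200 nuclear CPM, 5.91-fold higher (5.88 to 5.93), and was thus second to ND2 in level at 30 min while only ND5 had a lower ratio. The ends just before a tRNA (ND2, CO3, ND3, ND4L/4 and CYB) had ratios from 5.91 to 22.7. The ends with no tRNA after them on their strand, ATP8/6 and ND5, had 7.06 and 3.65, so the ranges of these groups overlapped. ND5 was also the only measured end whose stop codon is encoded in full.

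At 60 min all 7 ends were again called higher than in the same input and 0 lower, against 27.3% of nuclear sites called higher and 21.8% lower (median ratio 1.04). Of the nuclear sites of at least 1000 CPM, 15.3% were called higher and 40.0% lower. Scaled to all counts of the library, 6 of 7 ends were called, CO3 having a log2 ratio of 0.95. The ratios ran from 2.59 to 24.6 with a median of 6.64. ND2 had 57251 nuclear CPM, 24.6-fold the input (24.4 to 24.8). ND4L/4 had 44849, 13.8-fold the input (13.7 to 13.9), and CYB 39412, 9.64-fold (9.58 to 9.71). ATP8/6 had 30400 and ND3 15138, which were 6.64- and 6.48-fold the input. ND5 had 11386, 4.29-fold, and CO3 21252, which at 2.59-fold (2.57 to 2.61) took the lowest place from ND5. The 60 and 30 min ratios share the input library, so they are not independent of each other.

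**Figure D2:**
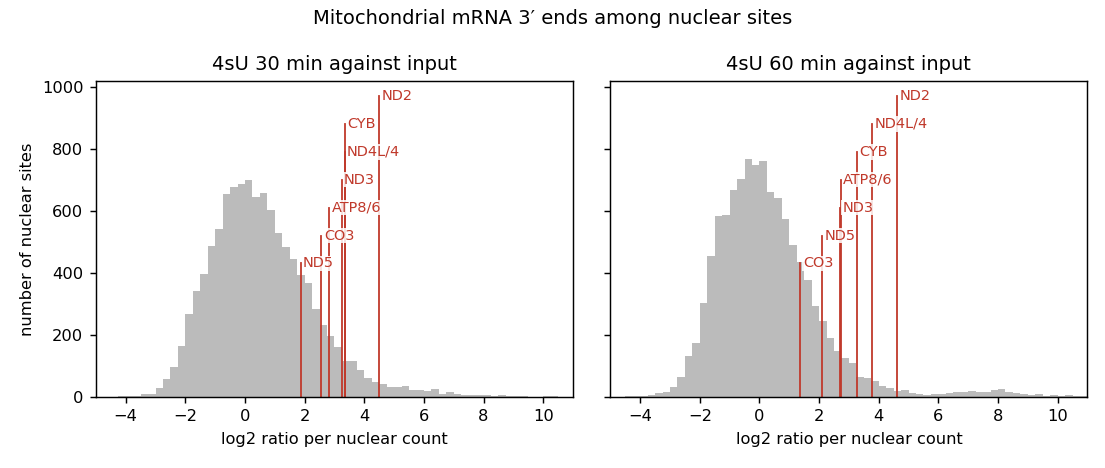
Histogram of the log2 ratio per nuclear count of nuclear sites with a mean of at least 10 CPM, at 30 min (left) and 60 min (right) against input, with the measured mitochondrial ends as red lines whose heights only separate the labels. All 7 ends lie right of the nuclear median in both panels, from 3.65- to 22.7-fold at 30 min and from 2.59- to 24.6-fold at 60 min.

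Shares within the set remove the scaling between libraries and show which ends gained or lost relative to the other heavy-strand mRNA ends. At 30 min against input, 1 end was called higher (ND2) and 1 lower (ND5). Of the 265 other sites of the set, 4.91% were called higher and 21.5% lower. The share of ND2 was 2.71 times that of the input (2.69 to 2.73). The share of ND5 was 2.30-fold lower (2.28 to 2.32), but as a share of all chrM counts ND5 was not called. The other ends stayed within 2-fold, with CYB at 1.22, ND4L/4 at 1.21, ND3 at 1.13, ATP8/6 at 0.841 and CO3 at 0.703 times the input.

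At 60 min against input, ND2 was called higher, at 3.11 times the input share (3.09 to 3.14), and CO3 was called lower, by 3.05-fold (3.03 to 3.07). The other sites of the set were called higher in 7.55% and lower in 14.0%. ND4L/4 reached 1.75 times the input share, and was called higher as a share of all chrM counts, and CYB 1.22, while ATP8/6 was at 0.840, ND3 at 0.820 and ND5 at 0.543. CYB and ATP8/6 kept nearly the same ratio at the labelling times. In share of the set ND3 lay above the input at 30 min and below it at 60 min, and was called at neither time.

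**Figure D3:**
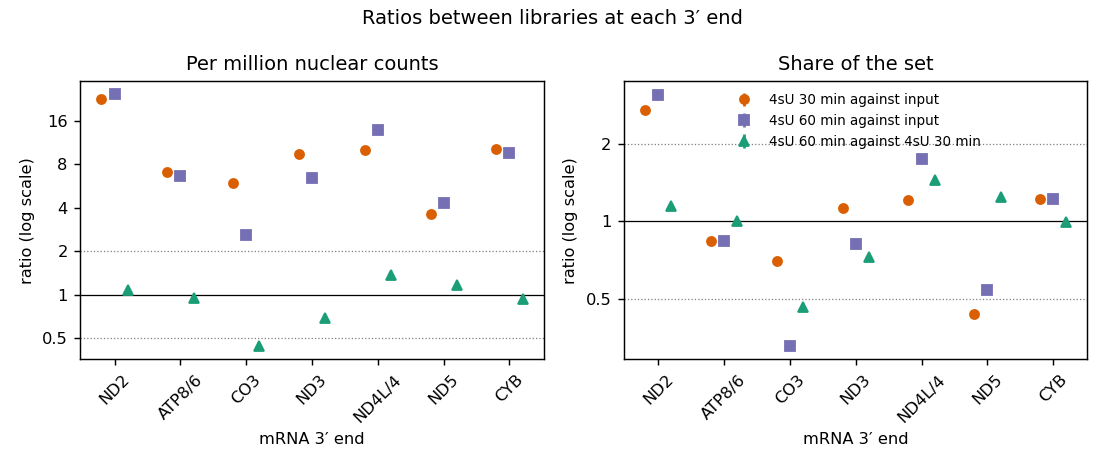
Ratios between libraries (log axis) at each measured end per nuclear count (left) and as share of the set (right), 1 library each, with exact 95% intervals smaller than the symbols; dotted lines mark 2-fold. The ratio of 60 to 30 min lies below the lower dotted line only for CO3, at 0.439 per nuclear count and 0.466 in share.

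Between the labelling times, per nuclear count, 1 of the 7 ends was called lower at 60 min (CO3) and 0 higher. Nuclear sites were called lower in 14.0% and higher in 4.58%, with a median ratio of 0.831, and of those of at least 1000 CPM in 0.00% and 5.88%. CO3 was 2.28-fold lower at 60 than at 30 min (2.26 to 2.29), and its ratio was below that of 91.1% of nuclear sites. Under median-of-ratios and TMM scaling this call was lost, with log2 ratios of -0.89 and -0.93 against -1.19 per nuclear count. As a share of the set it was 2.14-fold lower (2.13 to 2.16), where 0.380% of the other sites of the set were called lower and 3.04% higher. ND3, the next mRNA end downstream of CO3 with the glycine tRNA between them, had the second-lowest ratio in share, 0.728 (0.722 to 0.733), and was not called. ATP8/6, whose end lies directly before the CO3 coding sequence, had a share ratio with an interval from 0.994 to 1.01. CYB had a share ratio of 0.998, and its interval also included 1. ND2 at 1.15, ND5 at 1.25 and ND4L/4 at 1.45 had larger shares at 60 than at 30 min, under the 2-fold limit.

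Ratios between pairs of ends within a library need no scaling between libraries. There were 3.52 CO3 counts per ND2 count in the input, 0.916 at 30 min and 0.371 at 60 min. There were 3.51 CO3 counts per ND3 count in the input, 2.19 at 30 min and 1.40 at 60 min. The ends of ND4L/4 and ND5, neighbours separated by 3 tRNAs, stood at 1.23 to 1 in the input, 3.40 to 1 at 30 min and 3.94 to 1 at 60 min. ND5 and CYB, which follow each other directly on the plus strand, stood at 0.649 to 1 in the input, 0.231 to 1 at 30 min and 0.289 to 1 at 60 min.

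Counts inside the genes, away from the measured ends, did not change as the CO3 end did. From the ATP8/6 end to the CO3 end, positions outside both ends held 1.36% of the set in the input, 0.942% at 30 min and 1.06% at 60 min. Their share at 60 min was 1.13 times that at 30 min (1.11 to 1.15), against 0.466 at the CO3 end itself. In all 10 gene segments and in the short stretch after CYB, the share outside the measured ends was higher at 60 than at 30 min, by 1.02 to 1.35 times with a median of 1.18, although the interval after CYB included 1 (0.979 to 1.19). The smaller CO3 end by itself makes every other share larger. Per nuclear count the ratio was above 1 in 10 of these 11, with CO1 at 0.961 and a median of 1.11. As a whole these positions held 13.0% of the set at 30 min, 15.5% at 60 min and 16.6% in the input.

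The segments also differed in how their inner counts stood to the input. Inside CYB the share was 1.42 times the input at 30 min and 1.70 times at 60 min, the highest of the segments at both times. Inside ND3 it was 0.495 and 0.538 times the input, the lowest at both times, although the ND3 end itself was at 1.13 and 0.820. Inside ND4L/4 it was 0.519 and 0.673 times the input, with the end at 1.21 and 1.75. Inside ND2 the share was 0.676% in the input, 0.594% at 30 min and 0.700% at 60 min. The large ratio at the ND2 end was thus not seen in the counted part of this segment. The segment began at the ND1 end and held stretches without counts, such as 4497 to 4736. Inside ND5 it was 2.72%, 1.61% and 2.16%, lower than the input at both times, as at its end. For ND1, CO1 and CO2 these inner counts were the only ones left. Inside ND1 they held 2.01% of the set in the input, 1.94% at 30 min and 2.45% at 60 min, so the 60 min share was 1.22 times the input (1.20 to 1.24). Inside CO1 they held 2.55%, 2.45% and 2.50%, and inside CO2 1.40%, 0.997% and 1.09%. Each segment ran from the previous gene end, so it also held any tRNA stretch between the genes. The CO2 values therefore include counts that began 4 nt downstream of the CO1 end.

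**Figure D4:**
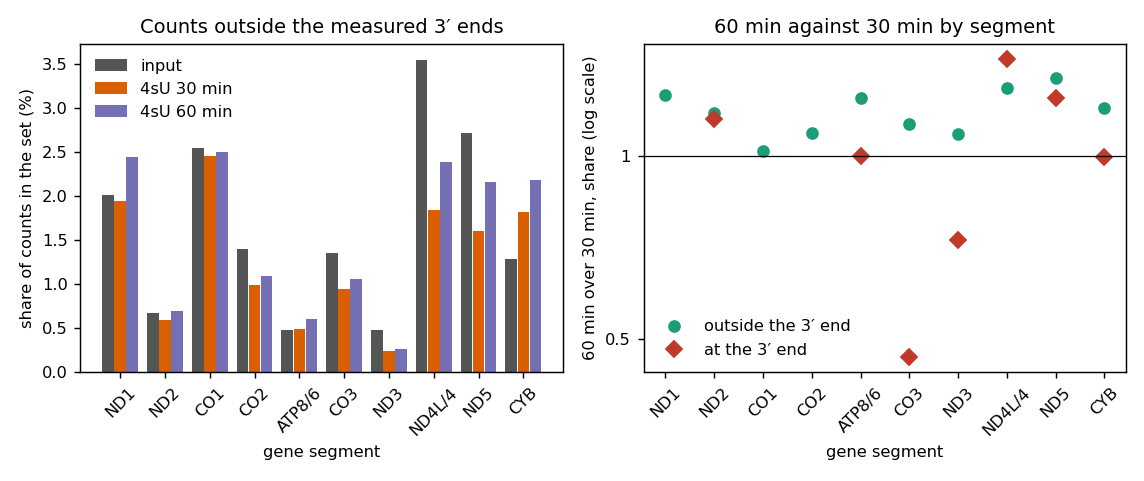
Left, share of the counts in the set (%) outside the measured 3′ ends, by gene segment and library. Right, ratio of the 60 to the 30 min share (log axis) outside the ends (circles) and at the ends (diamonds): inside CO3 it is 1.13 and at the CO3 end 0.466. There is 1 library per group and no diamond for ND1, CO1 and CO2, whose ends had no counts.

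Of the other sites, 66 held at least 0.1% of the set in a library. Among these the highest ratio of the 30 min share to the input was at 8524, inside ATP8 and shortly before the ATP6 coding sequence. It had 6659 counts at 30 min, 4110 at 60 min and 647 in the input, and its share was 4.16 times the input at 30 min (3.84 to 4.52) and 4.28 times at 60 min. Of its counts 83.3% lay at 1 position. The next were inside ND1 at 3946, with 2.42 and 3.65 times the input share, inside CYB at 15463 with 2.14 and 2.28, inside CO1 at 7067 with 2.11 and 1.89, and inside CYB at 15652 with 2.05 and 3.01. The sites at 3946 and 7067 lay 8 and 2 nt from a stretch without counts.

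The lowest ratios to the input were at 10126, inside ND3, with 337 counts at 30 min, 449 at 60 min and 1479 in the input. Its share was 10.9-fold lower than the input at 30 min (9.64 to 12.3) and 4.89-fold lower at 60 min. The site at 5827, in the cluster of minus-strand tRNA genes between ND2 and CO1, was 7.53- and 9.47-fold lower and lay 6 nt from a stretch without counts. Inside ND4L, sites at 10566 and 10593 were 5.11- and 4.64-fold lower at 30 min and 2.88- and 3.33-fold lower at 60 min. At 3307, just before the ND1 coding sequence, the share was 4.47-fold lower at 30 min and 2.71-fold lower at 60 min, and this site overlaps the boundary of the leucine tRNA described next.

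Ends at the 3′ boundary of tRNAs took smaller shares of the captured RNA than of the input. Such ends can mark precursors in which a tRNA is still joined to the RNA before it, or tRNAs that carry a tail. Of the 12 plus-strand tRNAs ending in the range, 6 had no counted position within 3 nt of their end, all inside a stretch without counts, and the threonine tRNA had 1 count in 1 library. The other 5 together held 0.0317% of the set at 30 min, 0.0606% at 60 min and 0.288% in the input. The leucine tRNA TRNL1, which lies between 16S rRNA and ND1, had 380 counts at 30 min, 593 at 60 min and 2237 in the input. Its share was 14.6-fold lower than the input at 30 min (13.1 to 16.3) and 5.60-fold lower at 60 min. The methionine tRNA TRNM before ND2 was 9.46-fold lower (7.94 to 11.3) and 3.78-fold lower, with 161, 242 and 616 counts.

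The glycine tRNA TRNG, between CO3 and ND3, had only 8 counts at 30 min, 10 at 60 min and 45 in the input, 13.9-fold lower in share at 30 min (6.49 to 34.2). The histidine tRNA TRNH, after ND4, had 15, 32 and 64 counts and was 10.6-fold lower at 30 min (5.94 to 19.9). The isoleucine tRNA TRNI, after ND1, had 280, 92 and 145 counts and a share at 30 min 1.28-fold lower than the input (1.04 to 1.57), which was not called. At 60 min its share was called lower, by 2.34-fold (1.79 to 3.07). Per nuclear count, TRNL1, TRNM, TRNG and TRNH had ratios of 0.577, 0.887, 0.604 and 0.796 at 30 min against input, where the mRNA ends had 3.65 to 22.7. The intervals of TRNM, TRNG and TRNH included 1. TRNI, at 6.56 (5.35 to 8.07), lay within the range of the mRNA ends. From 30 to 60 min the shares of TRNL1, TRNM and TRNH were 2.60, 2.51 and 3.56 times higher. That of TRNG was at 2.08, with an interval from 0.740 to 6.08 that included 1. TRNI went the other way, with a share at 60 min of 0.548 times that at 30 min (0.428 to 0.696).

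Within the measured ends the exact position of the counts was examined next. The share of an end's counts at its highest position had a median over the 7 ends of 70.4% in the input, 68.2% at 30 min and 67.7% at 60 min. The share was smaller at 30 min than in the input in 7 of 7 ends, where 69.3% of 4874 nuclear sites with a mean of at least 30 CPM also had a smaller share. At 60 min it was smaller in 6 of 7, all but ND5, against 59.2% of nuclear sites. For ATP8/6 and ND5 this share may be distorted by the stretch without counts beside the highest position. From 30 to 60 min it was smaller in 3 of 7 ends, against 34.4% of nuclear sites. CO3 showed the largest difference. In the input 81.4% of its counts lay at 9991 (81.3 to 81.6), against 69.2% at 30 min (69.0 to 69.3) and 67.7% at 60 min (67.5 to 68.0). The position 1 nt upstream, 9990, held 9.24%, 16.8% and 18.1% in the same order.

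ND3 and ND2 had split ends. ND3 had a pair of peaks, at 10401 and 10402 and again at 10405 and 10406, with few counts between them. The rule that placed the gene ends puts the ND3 end at 10405, so the highest position, 10402, lies 3 nt upstream of it. Position 10401 held 14.6% of the ND3 counts in the input, 26.9% at 30 min and 29.8% at 60 min. Position 10402 held 37.8%, 31.6% and 32.5%, and position 10406 held 16.3%, 10.7% and 8.39%. The share at 10405 was steadier, at 28.7%, 27.7% and 26.1%. ND2 had its main peak at 5512 with 56.8% in the input, 55.1% at 30 min and 52.7% at 60 min. A second peak at 5510 held 24.3%, 20.5% and 20.6%, and position 5509 held 6.67%, 10.7% and 12.4%.

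At the remaining ends the share at the highest position was also compared. ATP8/6 held 70.3%, 68.2% and 69.5% at 9206 in the input, at 30 min and at 60 min, and ND4L/4 held 76.7%, 70.4% and 70.1% at 12138. CYB held 70.4%, 64.3% and 66.5% at 15888, and its next position downstream held 12.6% in the input and 17.8% at 30 min. ND5 held 71.5%, 70.5% and 73.0% at 14746. The mean position lay upstream of the input in 6 of 7 ends at 30 min and 7 of 7 at 60 min, against 71.9% and 70.3% of nuclear sites. These tallies, and those from 30 to 60 min, include ATP8/6 and ND5, whose positions are cut off on 1 side by a stretch without counts. The ND5 shift at 60 min was only -0.0018 nt. The largest shifts were those of ND3, -0.375 nt at 30 min and -0.565 nt at 60 min, and of ND2, -0.211 and -0.364 nt. The median shift over the ends was -0.0499 nt at 30 min and -0.0835 nt at 60 min, smaller than the -0.117 and -0.106 nt of nuclear sites. From 30 to 60 min 6 of 7 ends shifted upstream, by a median of -0.0336 nt, against 49.0% of nuclear sites and a median of 0.00267 nt.

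**Figure D5:**
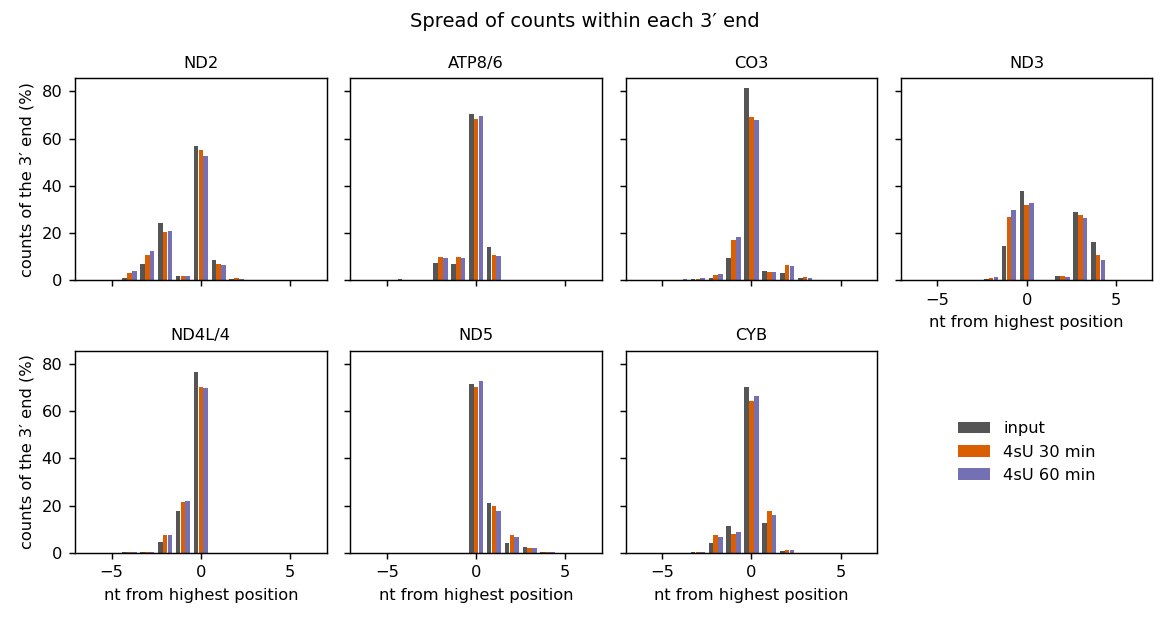
Percent of each end's counts by distance (nt) from its highest position, negative values being upstream, for the input and the captured libraries, 1 library each. ND3 has a pair of peaks, ND2 a second peak 2 nt upstream, and at the CO3 end the input has 81.4% at the highest position against 69.2% at 30 min.

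The set was strand-specific. On the minus strand, windows within 24 nt of the measured ends held from 0.00214% to 0.491% of the counts of both strands, the highest being ND5 at 30 min. The light-strand gene ND6 and the glutamate tRNA lie opposite the stretch before the ND5 end, not opposite the end itself. The source of these minus-strand counts was not tested. Over the whole range the minus strand held 1.32% of the counts of both strands at 30 min, 1.77% at 60 min and 2.80% in the input.

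Other mitochondrial ends gave a frame for these values. The 16S rRNA end at 3233, upstream of the set on the same strand, had ratios per nuclear count of 31.8 (31.6 to 32.1) at 30 min and 31.9 at 60 min against input, above all 7 mRNA ends, of which ND2 was nearest. The minus-strand end at 16027 had 20.9 and 28.7, between ND2 and the other mRNA ends at 30 min and above ND2 at 60 min. The minus-strand end at 221 in the control region had 1.75 and 1.46, below all 7 mRNA ends, and the minus-strand ends at 80 and 189 had 4.09 and 1.45 at 30 min. Within 24 nt of the 12S rRNA end there were 27 counts at 30 min, 15 at 60 min and 25 in the input, and no ratio was taken.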

How the data were processed

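RNA 3′ ends were counted in 3 libraries of HEK293T cells, 1 per group. Each deposited table lists unnormalised read counts by position and strand. Per the submitters' processing notes, the authors used cutadapt and Bowtie. No version, setting, genome build or rule for multi-mapping reads is named there. Per the labels' protocols, RNA was cut with RNase T1, reverse transcribed from anchored oligo(dT), and cDNA of 150 to 500 nt was selected. No molecular identifiers are named, so reads are not independent molecules.

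Positions are 1-based end coordinates of the tables, whose chrM runs to 16571. Plus was read as the RNA's own strand. Gene ends were placed at the last base before the next plus-strand RNA in RefSeq's GRCh38.p14 table, moved by 1 nt. All 10 genes were in that table. Of the 8 ends with enough counts nearby, 4 had their highest position at this shift, the most of any shift tried. No genome of the tables' numbering was used here, so no sequence is printed.

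Positions within 24 nt of a local maximum of summed counts formed a site. Counts were scaled per 1000000 nuclear counts (9652023 at 30 min, 6151986 at 60 min, 32768468 in the input) or to shares of the set. Ratios carry exact 95% intervals (Clopper-Pearson on the share of 2 counts), and shares carry Wilson intervals. A call needed 2-fold and an interval without 1. The background was nuclear sites with a mean of at least 10 CPM, or other sites of the set with at least 20 counts in a compared library. Calls and intervals were run on simulated counts that held counting error only. Such counts have no spread between replicates and no duplicate reads, so the run checks the calculation alone. No p-value was computed. Python 3.11.15 with scipy 1.17.1 was used, and edgeR 4.0.16 gave TMM factors for 1 alternative.

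All 10 gene ends were to be named. Other sites were named at 1% of the set or more, which none reached, or as the 5 highest and 5 lowest ratios of 30 min to input among sites with at least 0.1%. Among the values outside this rule, position 9990 and the other single positions within ends, and the pairs of ends compared, were chosen after their values were seen. The members and lists were chosen with earlier results of these data known.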

Additional observations from a re-analysis of the deposited data

Results flagged for a closer look

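In share of the set, the ND3 end moved in opposite directions against the shared input at the labelling times. Its share of the set was 1.13 times the input at 30 min (1.12 to 1.14) and 0.820 times at 60 min (0.812 to 0.827), with 8.01%, 5.83% and 7.11% of the set at 30 min, at 60 min and in the input. Each value rests on 1 library and the difference was not tested across replicates. Neither share ratio reached the 2-fold limit for a call. Per nuclear count both ratios were above 1, at 9.45 and 6.48. Of all chrM counts ND3 held 4.73% at 30 min, 3.36% at 60 min and 2.90% in the input. On that scale it lay above the input at both times, so the opposite directions depend on the denominator.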

How the results depend on the processing

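No paired analysis was possible because each group had 1 library, and no library could be left out. Per nuclear count at every site width, and under the other scalings between libraries, all 7 measured ends had ratios above 1 against the input. In shares of the set this did not hold, as for ND5 at 0.435 times the input at 30 min. Scaled to all counts of the library only 6 of 7 were called at 60 min, since CO3 had a log2 ratio of 0.95. Over all alternatives, 136 of 141 calls of single ends were kept, 3 were gained, and 290 of 309 ratios kept their sign. Between the labelling times per nuclear count, the 1 end called lower (CO3) became 0 with median-of-ratios and with TMM scaling. In shares of the set, leaving out ND2 gave 0 ends higher at 30 min and leaving out CO3, an alternative added after the data were seen, gave 0 lower from 30 to 60 min, since these were the called ends. Against input at 60 min, leaving out ND2 made ND4L/4 called higher (log2 ratio 1.06), and leaving out CO3 made ND5 called lower (log2 ratio -1.17). With whole gene segments, 0 were lower from 30 to 60 min, the CO3 segment standing at 0.500. As shares of all chrM counts, 0 ends were lower at 30 min and 2 were higher at 60 min (ND2 and ND4L/4). The share of the set at the gene ends was 86.7%, 84.0% and 83.2% at 30 min, 60 min and input within 10 nt, and 87.3%, 84.8% and 83.8% within 50 nt. Without a filter, 6.63%, 7.89% and 1.09% of 779809 nuclear sites were called higher and 0.925%, 1.08% and 1.28% lower (30 min and 60 min against input, 60 against 30 min). At a mean of at least 50 CPM, 7.10% were lower from 30 to 60 min. Depth limits only the tRNA boundaries, where TRNG had 8 counts at 30 min.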
